A study of Mus musculus with 13 samples.

Results

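Gulo and the aldehyde oxidase genes were followed through the round spermatids of 4 groups of mice. They were found by annotation, as the probes named Gulo and the probes whose gene symbol starts with Aox. That gave 7 probes of 5 genes (Gulo, Aox1, Aox2, Aox3 and Aox4) out of 45281 probes on the array. Of these, 4 probes, 1 each for Gulo, Aox4, Aox3 and Aox2, passed the detection filter and so stand among the 14660 genes or unnamed probes that were tested. Gulo and Aox4 were chosen by their high signals in one group on these same arrays. Their levels and differences are therefore given as a description, with no test, while Aox1, Aox2 and Aox3 came in by symbol alone.

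Gulo encodes L-gulonolactone oxidase, the FAD-dependent enzyme of the last step of vitamin C synthesis, which in mice is known above all from the liver. Aldehyde oxidases are molybdenum- and FAD-containing enzymes that oxidize aldehydes and nitrogen heterocycles. Mice carry a cluster of such genes on chromosome 1, and their products are known from different tissues, Aox3 and Aox1 from liver, Aox4 from the Harderian gland and skin, and Aox2 from the nasal mucosa. An aldehyde oxidase needs a sulfurated molybdenum cofactor, which Mocos supplies.

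Round spermatids are the haploid male germ cells between meiosis and elongation. The RNA came from males that carried the short hairpin transgenes shSLX1 and shSLY together (shSLX1shSLY, deficient for Slx/Slxl1 and Sly, 3 arrays), shSLX1 alone (deficient for Slx/Slxl1, 3 arrays), shSLY alone (deficient for Sly, 3 arrays) or no transgene (WT, 4 arrays). All males had the MF1YRIII background, were labelled as about 8 weeks old, and each array held a round spermatid fraction prepared by elutriation or sedimentation from the pooled testes of several males. The comparison asks how the X-linked Slx/Slxl1 and the Y-linked Sly, which are related multicopy genes, act on spermatid transcripts singly and together.

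Between 16110 and 19057 probes were detected per array, and 7 of 8 round spermatid markers were measured, with summed intensities of 72800 to 76500 on shSLX1shSLY, 76500 to 80900 on shSLX1, 73900 to 78200 on shSLY and 70300 to 82400 on WT arrays. No probe was named for Slx or Slxl1, so the shSLX1 knockdown was not checked here. The Sly probe had log2 intensities of 10.30 to 10.63 on shSLX1shSLY, 8.65 to 10.21 on shSLX1, 10.08 to 10.71 on shSLY and 9.85 to 10.35 on WT arrays, so it was not lower on the libraries labelled shSLY, and every direction given for the shSLX1shSLY and shSLY groups rests on their labels. By the background of undetected probes the arrays were clustered into 3 sets, a number that was chosen and not found from the data. The first held WT 1 and 2 with shSLY 1 and 2, the second WT 3 and 4 with shSLX1 1 and 2, and the third shSLY 3, shSLX1 3 and all shSLX1shSLY arrays. Correlations of that background were 0.44 to 0.49 within the second set and 0.46 to 0.55 between it and the first. The second set was therefore not clearly apart from the first. In RNA of a bulk fraction, fewer cells of a type and less RNA per cell cannot be told apart.

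The genes of the chromosome 1 cluster stand in the order Aox1, Aox3, Aox4, Aox2 in the reference annotation. The starts of the 3 that were measured are shown because these genes are neighbours and differed in their signals on the arrays. RefSeq promoter windows of build GRCm38.p6 were at hand for 4 of the 5 genes, and each runs from 250 bases before to 50 bases after the start, on the plus strand. Aox4 lies at chr1:58210147-58210446, Aox3 at chr1:58112886-58113185 and Aox2 at chr1:58278076-58278375. Capitals mark every match, on either strand, to the TATA box spelled TATAAA, the E-box spelled CACGTG, the full cAMP response element spelled TGACGTCA, its short form spelled TGACG, the core of the antioxidant response element spelled TGACNNNGC or the CCAAT box, spelled as in its name.
Aox4: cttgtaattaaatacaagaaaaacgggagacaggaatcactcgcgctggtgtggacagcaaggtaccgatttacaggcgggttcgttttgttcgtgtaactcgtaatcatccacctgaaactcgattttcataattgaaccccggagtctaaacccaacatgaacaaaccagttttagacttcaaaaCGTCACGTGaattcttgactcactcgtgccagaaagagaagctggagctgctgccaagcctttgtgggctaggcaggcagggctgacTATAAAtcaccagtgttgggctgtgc
Aox3: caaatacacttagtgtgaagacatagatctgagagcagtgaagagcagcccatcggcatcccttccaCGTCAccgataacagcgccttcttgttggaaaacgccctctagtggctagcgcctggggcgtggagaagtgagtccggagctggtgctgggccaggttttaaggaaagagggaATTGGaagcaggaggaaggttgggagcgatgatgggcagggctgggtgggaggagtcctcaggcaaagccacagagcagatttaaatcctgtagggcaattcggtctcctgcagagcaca
Aox2: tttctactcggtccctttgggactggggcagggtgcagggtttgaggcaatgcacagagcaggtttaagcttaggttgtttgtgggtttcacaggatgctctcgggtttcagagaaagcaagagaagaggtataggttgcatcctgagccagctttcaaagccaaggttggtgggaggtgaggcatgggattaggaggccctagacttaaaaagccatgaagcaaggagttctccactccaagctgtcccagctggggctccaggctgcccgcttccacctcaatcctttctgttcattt
The Aox4 window held TATAAA from base 275, CACGTG from base 191 and, overlapping it on the minus strand, TGACG from base 188. The Aox3 window held TGACG from base 68 and CCAAT from base 181, both on the minus strand, and the Aox2 window held none of the 6. Of all 32851 promoter windows, 13.6% held TATAAA, 7.15% CACGTG, 1.79% TGACGTCA, 20.8% TGACG, 12.4% TGACNNNGC and 37.4% CCAAT. These matches describe the letters only.

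Gulo had its highest signals in shSLX1 spermatids, deficient for Slx/Slxl1 alone. The probe (ILMN_2631948) gave linear signals of 91.2, 93.2 and 81.7 on the shSLX1shSLY arrays, 172, 192 and 246 on the shSLX1 arrays, 108, 112 and 96.2 on the shSLY arrays, and 82.7, 88.8, 89.2 and 99.6 on the WT arrays. Every shSLX1 array stood above all other 10 arrays, and shSLX1shSLY arrays lay within or close to the WT range. After normalization the shSLX1 arrays also stood above all others. On those normalized values the same separation was found for 2.87% of all genes tested, and it belongs to what chose the gene. Gulo was detected (p under 0.05 against the negative control beads) on 2 of 3 shSLX1shSLY, 3 of 3 shSLX1, 3 of 3 shSLY and 3 of 4 WT arrays, so in shSLX1shSLY and WT its signal was near background.

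After background correction and quantile normalization, Gulo averaged a log2 intensity of 5.08 ± 0.33 in shSLX1shSLY, 7.27 ± 0.47 in shSLX1 and 5.73 ± 0.18 in shSLY (SD, n = 3 each), and 5.14 ± 0.17 in WT (SD, n = 4). The difference of shSLX1 minus WT was 2.13 on the log2 scale (SE 0.21), the 10th highest among 14660. In that comparison 1.67% of all genes were called higher, which asks for an adjusted p below 0.05 together with a change of more than 1.5-fold. Background correction sets the size of such a difference for a dim probe. Without it the same difference was 1.22 (SE 0.13), and on the authors' normalized values it was 1.20.

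**Figure D1:**
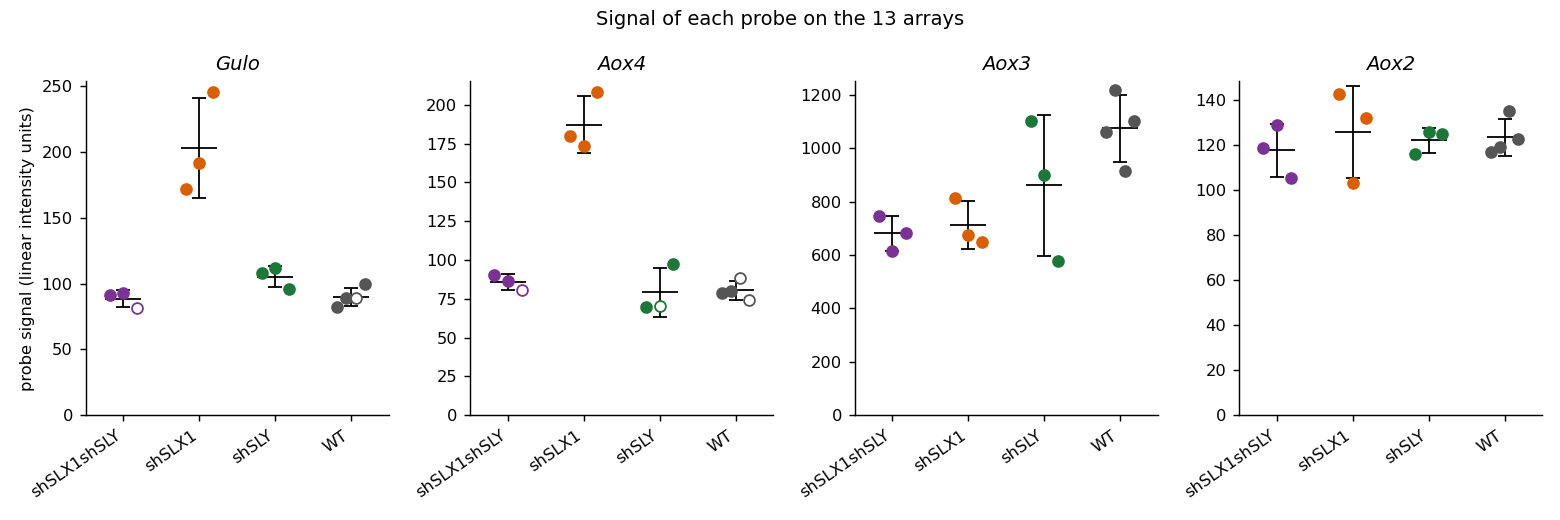
Linear probe signal on each array for Gulo, Aox4, Aox3 and Aox2, by group, with filled points for arrays where the probe was detected, open points for the others, and the group mean with its SD in black. The shSLX1 points of Gulo (172 to 246) and Aox4 (173 to 208) stood above every other array, while those of Aox2 (103 to 143) lay among the other groups.

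Aox4 showed a like pattern. Its probe (ILMN_2751837) gave signals of 90.6, 86.2 and 80.6 on the shSLX1shSLY arrays, 180, 173 and 208 on the shSLX1 arrays, 69.8, 70.3 and 97.2 on the shSLY arrays, and 78.9, 80.1, 88.7 and 74.2 on the WT arrays. The 3 shSLX1 arrays were again above all the others, which overlapped with each other. Aox4 was detected on 2 of 3 shSLX1shSLY, 3 of 3 shSLX1, 2 of 3 shSLY and 2 of 4 WT arrays, and on WT 4 its detection p was 0.61. Its log2 intensity averaged 4.92 ± 0.24 in shSLX1shSLY, 7.12 ± 0.24 in shSLX1 and 5.06 ± 0.45 in shSLY (SD, n = 3 each), and 4.84 ± 0.31 in WT (SD, n = 4). The difference of shSLX1 minus WT was 2.27 (SE 0.22), the 7th highest of the comparison, and 1.25 (SE 0.12) without background correction.

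Of the neighbouring aldehyde oxidases, Aox3 and Aox2 were measured and neither was called. Aox3 was detected on 13 of 13 arrays, with signals of 747, 614 and 682 on shSLX1shSLY, 813, 675 and 649 on shSLX1, 1103, 901 and 579 on shSLY, and 1060, 1219, 913 and 1103 on WT arrays. Only before normalization were all shSLX1 and shSLX1shSLY arrays below all WT arrays, and the share of all genes that separated so was not counted. After it the shSLX1 arrays had log2 intensities of 9.31 to 9.67 and the shSLX1shSLY arrays 9.45 to 9.68, against 9.62 to 9.93 on WT arrays, which overlap. The limma difference of shSLX1 minus WT was -0.23 for Aox3 (95% interval -0.53 to 0.06, adjusted p = 0.542). Aox2 was detected by 1 of its 2 probes on all 13 arrays, with signals of 119, 129 and 106 on shSLX1shSLY, 143, 103 and 132 on shSLX1, 116, 126 and 125 on shSLY, and 117, 119, 135 and 123 on WT arrays. Its groups overlapped, and the limma difference of shSLX1 minus WT was 0.05 (95% interval -0.34 to 0.45, adjusted p = 0.938). Over the 6 comparisons the adjusted p of Aox3 and Aox2 ran between 0.469 and 0.998. With median scaling, which moved the median of all genes by -0.35, Aox3 was called lower in shSLX1shSLY minus WT (limma difference -0.64, adjusted p = 0.0378), against -0.15 in the quantile-normalized data. The other Aox2 probe and both Aox1 probes were detected on 0 of 13 arrays, with signals of 48.2 to 83.4, so no level of Aox1 was measured.

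The second deficiency was read by setting shSLX1shSLY against each single line. Gulo was lower in shSLX1shSLY than in shSLX1 spermatids by a log2 difference of -2.19 (SE 0.22), the 14th lowest of 14660, and Aox4 by -2.20 (SE 0.23), the 13th lowest. In this comparison 3.98% of all genes were called lower. Both comparisons with shSLX1 rest on the same 3 shSLX1 arrays. Against WT, shSLX1shSLY differed by -0.07 for Gulo (95% interval -0.51 to 0.38) and by 0.07 for Aox4 (-0.40 to 0.54), where 8.89% of all genes were called. The interaction, the effect of shSLX1 on the shSLY background minus its effect without shSLY, was -2.78 (SE 0.30) for Gulo and -2.41 (SE 0.32) for Aox4, the 4th and the 18th lowest of all genes, 1.28% of which were called lower. For Aox3 the limma difference of shSLX1shSLY minus shSLX1 was 0.08 (95% interval -0.24 to 0.40, adjusted p = 0.769) and for Aox2 0.09 (-0.33 to 0.51, adjusted p = 0.811).

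Sly deficiency alone went with a smaller shift of Gulo. Its log2 intensities were 5.78, 5.88 and 5.53 on the shSLY arrays, against 5.20, 5.25, 4.89 and 5.22 on the WT arrays. These did not overlap, although the linear signals did, and 8.59% of all genes had every shSLY array above every WT array. The difference of shSLY minus WT was 0.59 (SE 0.21), in a comparison where 3.08% of all genes were called, and it was 0.27 without background correction. Aox4 differed by 0.21 (SE 0.22) in the same comparison, with shSLY 3 at 5.57 and shSLY 1 and 2 at 4.82 and 4.78. Between shSLX1shSLY and shSLY, where 0.102% of all genes were called, the difference was -0.65 (SE 0.22) for Gulo and -0.14 (SE 0.23) for Aox4.

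**Figure D2:**
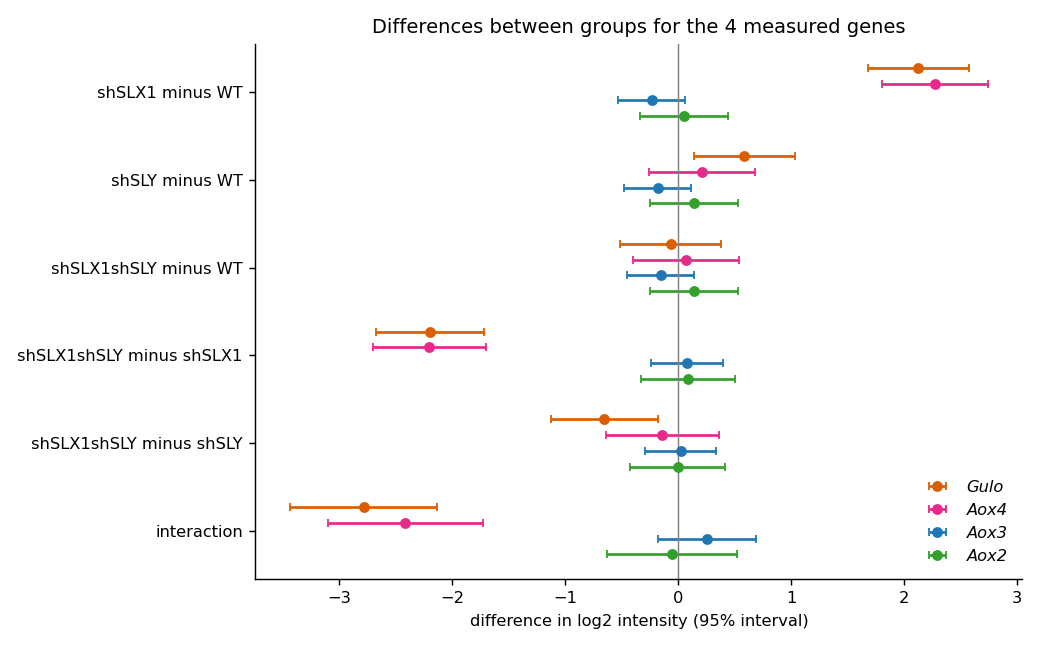
Differences in log2 intensity for Gulo, Aox4, Aox3 and Aox2 in 6 comparisons, with 95% intervals from the fit across all genes. Gulo and Aox4 lie near 2 on the log2 scale for shSLX1 minus WT (2.13 and 2.27) and near -2 for shSLX1shSLY minus shSLX1 (-2.19 and -2.20), while the intervals of Aox3 and Aox2 include 0 in every comparison.

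The array sets cut across the groups in part, so some differences were also read within them. All shSLX1shSLY arrays lay in the third set, which held no WT array, so shSLX1shSLY minus WT and the interaction could not be read within a set. With the array set as a block 44 genes were called in shSLX1shSLY minus WT, against 1303, and Aox4 differed by -0.43. Within the second set, shSLX1 1 and 2 minus WT 3 and 4 gave 2.04 for Gulo and 2.41 for Aox4. Within the third set, the 3 shSLX1shSLY arrays minus shSLX1 3 gave -2.54 for Gulo and -2.35 for Aox4. Within the first set, shSLY 1 and 2 minus WT 1 and 2 gave 0.60 for Gulo and -0.26 for Aox4, so the sign of the small Aox4 difference turned. When arrays were left out one at a time, the difference of shSLX1 minus WT stayed between 1.96 and 2.39 for Gulo and between 2.12 and 2.41 for Aox4. Both genes were chosen by their high signals on these shSLX1 arrays, so these ranges and within-set values are no independent check. The value within the third set also rests on shSLX1 3 alone, the highest array for both genes in log2 intensity.

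Gulo and Aox4 were high on the same 3 arrays and varied with little relation to each other on the rest. Within shSLX1, replicate 1 was the lowest and replicate 3 the highest for both genes in log2 intensity, with 6.74, 7.46 and 7.61 for Gulo and 6.84, 7.24 and 7.27 for Aox4. Over the 10 arrays other than shSLX1 the Pearson correlation of the genes was 0.19, as a description of arrays that share normalization and array sets.

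**Figure D3:**
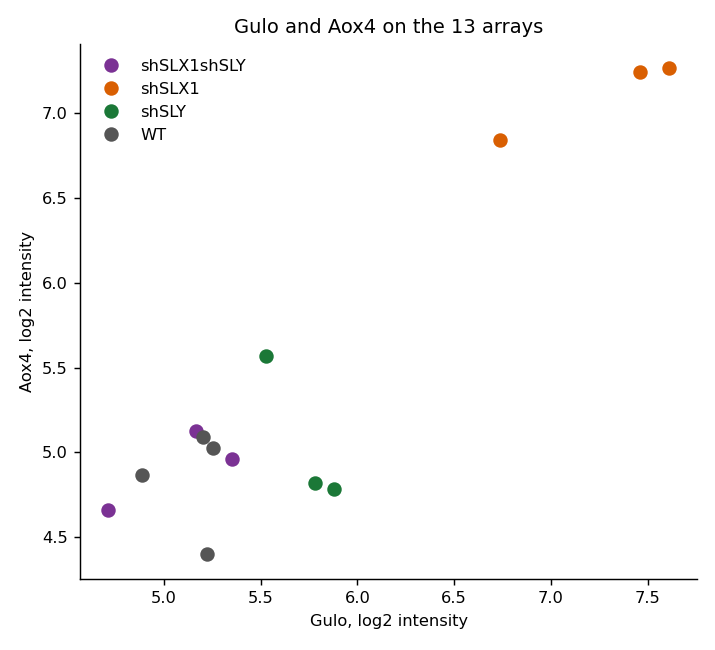
Log2 intensity of Aox4 against that of Gulo on the 13 arrays, coloured by group. The 3 shSLX1 arrays stand apart at 6.74 to 7.61 for Gulo and 6.84 to 7.27 for Aox4, and the other 10 arrays form a cloud without a clear trend.

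The named genes most like Gulo over the 13 arrays, by the Pearson correlation of log2 intensities and passing over probes without a single gene name, were Dcp1a (mRNA decapping, 0.96), Plpp3 (a phospholipid phosphatase, 0.95), Pira2 (a paired immunoglobulin-like receptor, 0.95), Col4a2 (a collagen IV chain, 0.95) and Slamf9 (a SLAM family receptor, 0.95). Over the 10 arrays other than shSLX1 their correlations with Gulo were 0.79 to 0.86. The named genes most like Aox4 were Stfa1 (a stefin, which inhibits cysteine proteases, 0.98), Tmod4 (a tropomodulin of muscle, 0.98), Acsl5 (an acyl-CoA synthetase, 0.97), Nudt5 (an ADP-sugar hydrolase, 0.97) and Tmem255b (0.97), with 0.57 to 0.74 over the other 10 arrays. Those 10 arrays were among the 13 by which the genes were chosen, so the choice makes high correlations there likely too. With all tested probes counted, Aox4 came 42nd in likeness to Gulo and Gulo 44th in likeness to Aox4. These 10 genes had differences of shSLX1 minus WT between 1.17 (Acsl5) and 2.90 (Stfa1) and of shSLX1shSLY minus shSLX1 between -2.68 (Tmod4) and -1.13 (Acsl5), as the choice by likeness makes likely.

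The nearest measured genes around Gulo and the Aox genes on the chromosomes were not called. Around Gulo on chromosome 14, the 3 nearest measured genes on each side in the reference order were Scara5, Pbk and Esco2 before it and Trim35, Dpysl2 and Bnip3l after it. They lay 7 to 9 places before Gulo and 9 to 21 places after it, so no gene directly next to Gulo was measured. The differences of these genes in shSLX1 minus WT lay between -0.29 (Bnip3l) and 0.60 (Esco2, a cohesin acetyltransferase, limma adjusted p = 0.276). Around the Aox genes on chromosome 1 stood Hsfy2, 1700066M21Rik and Sgo2a before and Bzw1, Clk1 and Ppil3 after, with differences between 0.00 (Clk1, a splicing kinase) and 0.30 (Bzw1, adjusted p = 0.539). Those before lay 1 (Sgo2a) to 20 (Hsfy2) places from Aox1. In the same cluster Aox4 differed by 2.27. None of the 12 flanking genes was called in shSLX1shSLY minus shSLX1 either. Of all genes, 1.78% were called in shSLX1 minus WT and 7.54% in shSLX1shSLY minus shSLX1. At such shares, the lack of a call among 12 genes says little about the neighbourhood.

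**Figure D4:**
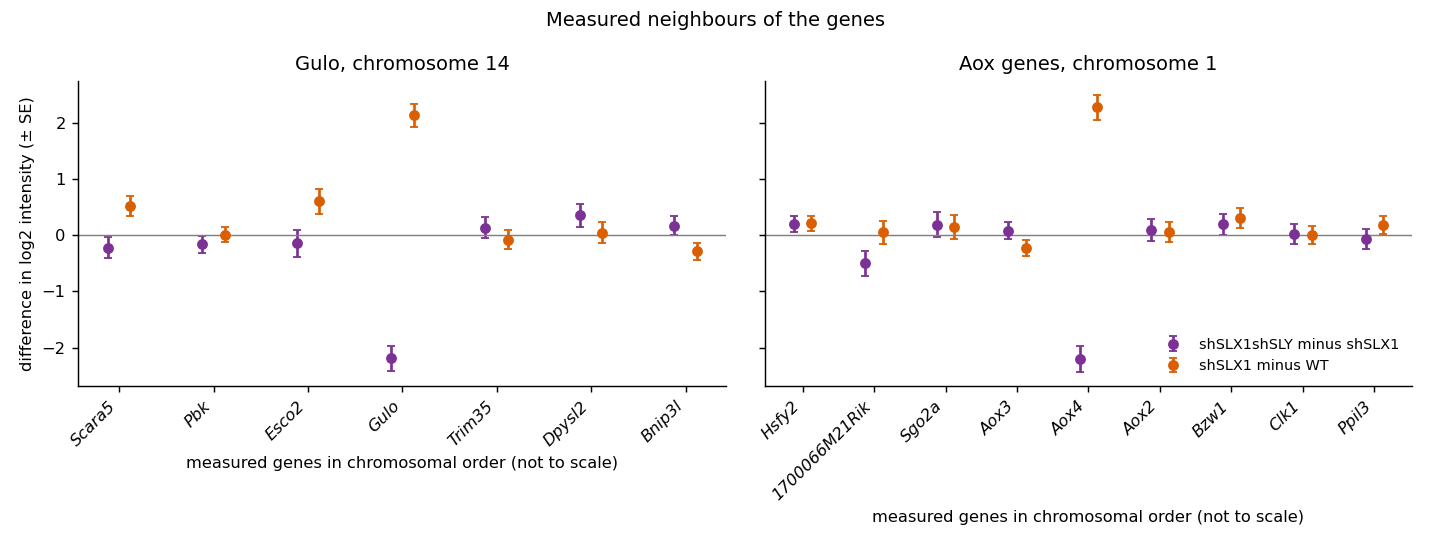
Difference in log2 intensity with its SE for measured genes in chromosomal order around Gulo (left) and the Aox genes (right), for shSLX1shSLY minus shSLX1 (purple) and shSLX1 minus WT (orange). Gulo and Aox4 stand at about 2.13 and 2.27 for shSLX1 minus WT, and the flanking genes lie between -0.29 and 0.60.

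Genes of the same pathways were then read from 6 lists that hold 76 genes besides Gulo, 41 of them tested. In shSLX1 minus WT 1 was called higher and 0 lower, which is 2.44% of the tested list genes against 1.78% of all genes. In shSLX1shSLY minus shSLX1 2 were called lower and 0 higher, 4.88% against 7.54% of all genes, and 1 of them, Pam, passed the detection filter only through the shSLX1 arrays. In the interaction 1 was called lower, 2.44% against 1.37%, and in the 3 remaining comparisons limma called 0 of 41. Of all genes, 3.08% were called in shSLY minus WT, 8.89% in shSLX1shSLY minus WT and 0.102% in shSLX1shSLY minus shSLY. Other settings called up to 5 list genes in shSLX1shSLY minus WT (median scaling). With array quality weights it was up to 9 in shSLX1shSLY minus shSLY and 1 in shSLY minus WT.

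The gene called in shSLX1 minus WT, in shSLX1shSLY minus shSLX1 and in the interaction was Mocos. It encodes the molybdenum cofactor sulfurase that activates aldehyde oxidases and xanthine dehydrogenase. Its signals were 129, 132 and 124 on the shSLX1shSLY arrays, 199.6, 170.3 and 185 on the shSLX1 arrays, 159, 150 and 140.2 on the shSLY arrays, and 146, 168, 142 and 150.2 on the WT arrays. In linear signal the shSLX1 arrays were above all others and the shSLX1shSLY arrays below all others. The share of all genes that separated so in linear signal was not counted. In log2 intensity the shSLX1 arrays also stood above all others, as they did for 2.87% of all genes tested. There the shSLX1shSLY arrays (6.35 to 6.52) overlapped with WT (6.37 to 6.53). limma gave 0.65 for shSLX1 minus WT (SE 0.12, adjusted p = 0.00807), -0.67 for shSLX1shSLY minus shSLX1 (SE 0.13, adjusted p = 0.00497) and -0.81 for the interaction (SE 0.18, adjusted p = 0.0328). It did not pass the test in shSLY minus WT (0.14, adjusted p = 0.616) or in shSLX1shSLY minus WT (-0.02, adjusted p = 0.908). Without background correction the first of these differences was 0.43, a fold under 1.5, with an adjusted p of 0.00645, and with median scaling it was 0.34 (adjusted p = 0.234, against 0.00136 to 0.234 over 24 alternatives), or 0.61 relative to the median of all genes, which that scaling moved by -0.27. The difference of shSLX1shSLY minus shSLX1 was -0.44 without background correction, -0.45 with normexp and -0.44 on the authors' values, each under 1.5-fold and so not called, with an adjusted p of 0.00103 to 0.0472 over 24 alternatives. The interaction lost its call in 10 of 13 fits with 1 array left out, where it ran between -0.86 and -0.75, and with the replicate number as a block (-0.81, adjusted p = 0.0992), and its adjusted p ran between 0.006 and 0.25 over 24 alternatives.

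The other 5 tested genes of the molybdenum cofactor list were not called in any comparison. In shSLX1 minus WT they lay between -0.22 (Mocs1, which starts cofactor synthesis) and 0.62 (Mocs2, a molybdopterin synthase subunit, limma adjusted p = 0.257). The median of all 6 was 0.17, against -0.02 over all genes tested. Xdh, Suox and Mtarc2, enzymes that use the cofactor, did not pass the detection filter, and no probe was named for Mtarc1.

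In vitamin C synthesis, 3 of the 9 other listed genes were tested and 0 were called in any comparison. Akr1a1, the aldehyde reductase that makes gulonate from glucuronate, differed by -0.13 in shSLX1 minus WT (limma adjusted p = 0.787), Miox, which oxidizes inositol to glucuronate, by 0.22 (adjusted p = 0.583), and Cryl1, a gulonate dehydrogenase, by -0.22 (adjusted p = 0.719). Rgn, the gluconolactonase that acts one step before Gulo in mice, and Ugdh, which makes UDP-glucuronate, had a probe that did not pass the filter. The list's median was -0.13 in shSLX1 minus WT.

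Among 14 genes of vitamin C transport and recycling, 9 were tested and 0 called. The sodium-dependent vitamin C transporter genes Slc23a1 and Slc23a2 did not pass the filter. Slc2a8, a glucose transporter gene of the testis, had signals of 266, 260.5 and 276 on shSLX1shSLY, 247, 243 and 254 on shSLX1, 422, 413 and 252 on shSLY, and 456, 488, 329 and 415 on WT arrays. The limma difference of shSLX1 minus WT was -0.55 (adjusted p = 0.0581).

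Of 19 oxygenases that use ascorbate, 9 were tested. Pam, which amidates peptide ends, is the second gene counted as lower in shSLX1shSLY minus shSLX1. Its signals were 72.7, 73.4 and 74.3 on the shSLX1shSLY arrays, none of them detected, and 102, 87.6 and 93.4 on the shSLX1 arrays, all detected, so shSLX1 was at least 1.09-fold higher. The bound is the mean log2 intensity of the brighter group over the lowest detected level on each array of the dimmer one. Of the WT arrays 1 of 4 detected Pam and of the shSLY arrays 0 of 3, so it passed the filter only through the group where it was high, and its values are a description with no test. The count of it was lost without shSLX1shSLY replicate 1 and in 7 of 23 alternatives in all. Egln2, a hypoxia-inducible factor prolyl hydroxylase, had the lowest difference of the oxygenases in shSLX1 minus WT, at -0.55.

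Among 20 aldehyde dehydrogenases, which oxidize aldehydes with NAD or NADP and share substrates with aldehyde oxidases, 13 were tested and 0 called. In shSLX1 minus WT they lay between -0.45 (Aldh3b1, limma adjusted p = 0.0545) and 0.29 (Aldh1l1, a formyltetrahydrofolate dehydrogenase), with a median of -0.12. Of the FAD-linked oxidases with a fold like that of Gulo, only Agps, of ether lipid synthesis, was tested, with a difference of 0.09 (adjusted p = 0.899).

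**Figure D5:**
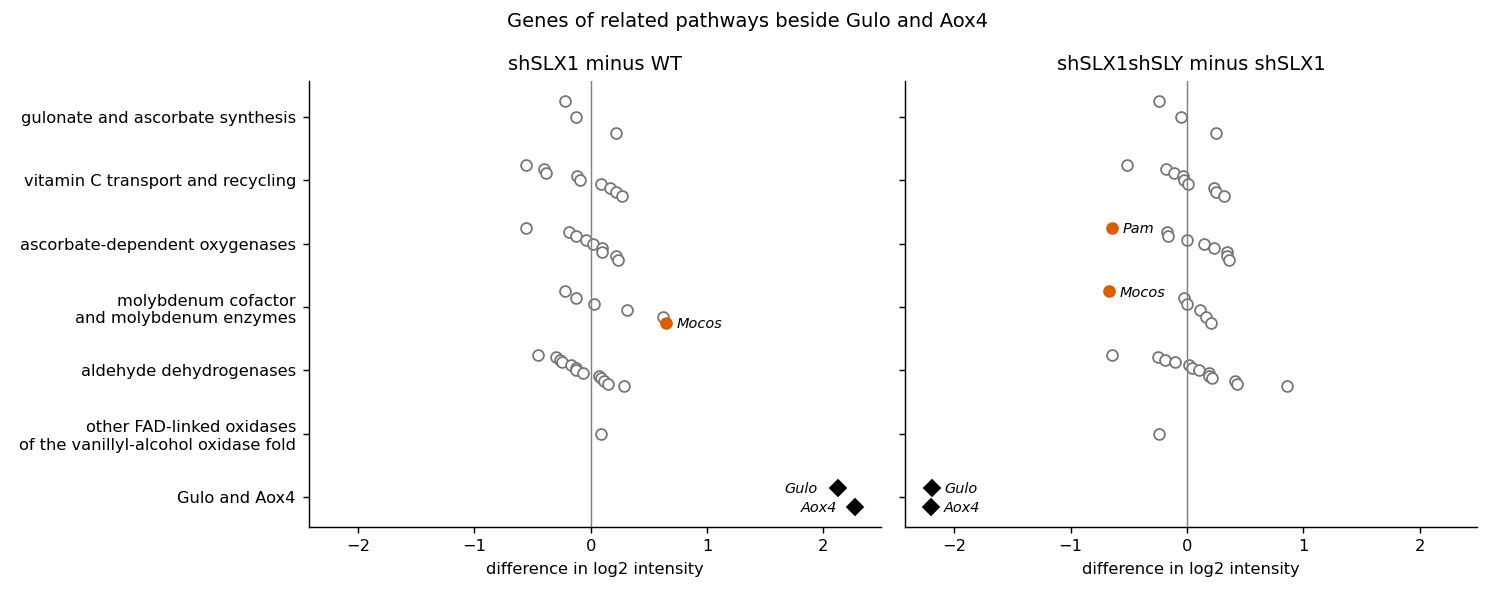
Difference in log2 intensity of the tested genes of 6 lists in shSLX1 minus WT (left) and shSLX1shSLY minus shSLX1 (right), with called genes in orange and Gulo and Aox4 as black diamonds. Mocos (0.65 and -0.67) is in orange on both sides, Pam is in orange on the right without a detected shSLX1shSLY array behind its point, and most others lie near 0.

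Markers of other cells were read beside Gulo and Aox4, and their part in the differences was not tested. Of 8 hepatocyte markers, 7 did not pass the filter, the albumin probe was detected on 0 of 13 arrays, and the eighth, Apoa2, summed to 23.5 to 36.3 on shSLX1shSLY, 20.8 to 21.9 on shSLX1 and 23.7 to 31.9 on WT arrays. Of 6 markers of peritubular myoid and smooth muscle cells, 4 were tested. Myh11, the smooth muscle myosin heavy chain, had signals of 78.01, 74.7 and 76.1 on shSLX1shSLY, 120.3, 112 and 120 on shSLX1, and 69.2, 73.9, 75.4 and 80.7 on WT arrays. By the probe kept for it, Myh11 was detected on 3 of 3 shSLX1 arrays, 1 of 3 shSLY arrays and no shSLX1shSLY or WT array. By that probe it was at least 1.95-fold higher in shSLX1 than in WT. It passed the filter only through the group where it was high, and this is a description with no test. Another Myh11 probe (ILMN_1224007) was detected on 0 of 13 arrays, with a highest signal of 75.9. The list's summed intensity was 6540 to 7520 on shSLX1shSLY, 6490 to 7020 on shSLX1 and 5380 to 6900 on WT arrays, which overlap, and Tagln and Cnn1 did not pass the filter. That sum is mostly Actg2, with a mean log2 intensity of 12.67. The other 3 differed in shSLX1 minus WT by 1.22 for Acta2, the smooth muscle actin (limma adjusted p = 0.138), by 0.13 for Actg2 (adjusted p = 0.737) and by -0.07 for Des, the muscle intermediate filament (adjusted p = 0.897). Further Acta2 probes (ILMN_1236619 and ILMN_1237242) were detected on 0 of 13 arrays.

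In shSLX1 minus WT limma called 0 of 5 tested Sertoli cell, 0 of 3 Leydig cell, 0 of 7 macrophage and 0 of 4 spermatogonia and spermatocyte markers. As 1.78% of all genes were called there, such short lists would seldom hold a call. Differences above 0 were found for 0 of 5 Sertoli cell markers (median -0.43) and 1 of 3 Leydig cell markers. The same held for 5 of 7 macrophage and 4 of 4 spermatogonia and spermatocyte markers. Summed spermatogonia and spermatocyte markers ran at 1500 to 1930 on shSLX1shSLY, 1350 to 3470 on shSLX1 and 1250 to 1680 on WT arrays, with Stra8, Sycp3, Dmc1 and Hormad1 not passing the filter. Summed Sertoli cell markers ran at 269 to 418 on shSLX1shSLY, 237 to 292 on shSLX1 and 305 to 541 on WT arrays, with Fshr, Amh and Gata4 not passing it. Summed macrophage markers ran at 351 to 495, 388 to 506 and 275 to 603 on the same groups, with C1qa, Cd163 and Tyrobp not passing it.

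The same markers were read on shSLY arrays, beside the shift of Gulo there, and their part in it was not tested. Summed Leydig cell markers ran at 241 to 360 on shSLX1shSLY, 122 to 254 on shSLX1, 262 to 672 on shSLY and 161 to 197 on WT arrays. All shSLY arrays thus lay above all WT arrays, which also held for 8.59% of all genes tested. That sum rests on 3 of 8 listed markers, with Star, Hsd3b1, Hsd3b6 and Hsd17b3 not passing the filter. Of the 3, 2 had a difference of shSLY minus WT above 0. Insl3 was the brightest, with a mean log2 intensity of 7.48, against 4.67 for Cyp11a1 and 4.93 for Cyp17a1. Macrophage markers summed to 517 to 622 on shSLY and 275 to 603 on WT arrays, and 7 of 7 had a difference of shSLY minus WT above 0, with a median of 0.60, against a median of -0.61 for shSLX1shSLY minus shSLY. The intensity of Hba-a1, the alpha-globin of red blood cells, ran at 56.4 to 68.2 on shSLX1shSLY, 67.1 to 118 on shSLX1, 214 to 1170 on shSLY and 50.8 to 684 on WT arrays. In shSLY minus WT limma called 0 of these markers, and in shSLX1shSLY minus shSLX1 it called 1 macrophage marker, Adgre1, higher. Of all genes, 3.08% and 7.54% were called in these comparisons.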

How the data were processed

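RNA of round spermatid fractions from 13 preparations was measured on Illumina mouse BeadChip arrays, which have 1 colour, with groups and replicate numbers taken from the sample labels. The authors deposited linear bead intensities per probe, without normalization between arrays, and a detection p-value per probe and array, which the scanner software derives from negative control beads. The authors' second table holds normalized signal values whose columns have medians of 77.38 to 77.44 on the linear scale, and was used as an alternative. The submitters' processing notes name GenomeStudio 2011.1, and the study's methods name BeadStudio.

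The neqc function of limma 3.58.1 (R 4.3.3) corrected the intensities for background, using detection p-values to place the negative controls, added an offset of 16, and gave quantile-normalized log2 values. A probe was kept when 3 or more arrays had a detection p below 0.05 (20250 of 45281 probes). The brightest kept probe stood for a gene. Of the probes, 34885 had 1 gene name, 18 had several and 10378 none, and 34807 names were updated through gene identifiers. The 13 arrays entered 1 limma fit (lmFit, eBayes) of 4 group means. Degrees of freedom were 9 (residual) and 5.64 (prior), and p-values were adjusted by Benjamini-Hochberg across 14660 genes or unnamed probes. Calls needed an adjusted p below 0.05 and more than a 1.5-fold change. The fit was tested on simulated data. The number of arrays limits the precision, and the series text names the samples biological replicates, each from a pool of males.

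Gulo and Aox4, the gene lists, the markers and the alternatives were chosen with earlier results of these data known, and the neutrophil markers after these values were seen, of which 1 of 9 with a probe (Mpo) was tested and 0 called in shSLX1 minus WT. Named genes are the Gulo and Aox genes, list genes called in any comparison or otherwise up to 4 per list with the smallest p, the 5 genes most like Gulo and Aox4, and 3 measured neighbours on each side. Mocs1, Rgn, Ugdh, Xdh, Suox, Mtarc1, Mtarc2, Slc23a1, Slc23a2, Egln2 and the marker genes were named after their values were seen. Same-numbered WT and shSLY arrays deviated together from their group means (correlations of 0.11, 0.25 and 0.25), as did shSLY and shSLX1 arrays (0.17, 0.27 and 0.46). WT and shSLX1 arrays did not (-0.049, -0.19 and -0.17), and pairs with shSLX1shSLY arrays lay between -0.041 and 0.053. This was read from the data alone and not from the labels. Array sets come from Ward clustering of probes detected on no array. Alternatives were other background corrections, scalings, filters, blocks and weights, and leaving out each array. Python 3.11.15 with matplotlib 3.10.9 drew the figures.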

Additional observations from a re-analysis of the deposited data

Results flagged for a closer look

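The log2 intensity of Gulo on WT replicate 3 was 4.89, against 5.20, 5.25 and 5.22 on the other WT arrays (limma neqc values), and the gap to its nearest neighbour took 0.869 of the group's range, above Dixon's critical value for a group of this size. This array is also the WT array on which the Gulo probe was not detected. Chance alone marks about 1 in 20 groups in this way, and 27 WT groups were checked. Without this array the difference of shSLX1 minus WT for Gulo stayed within the range of 1.96 to 2.39.

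The effect of shSLX1 on Mocos differed with and without shSLY, with an interaction of -0.81 on the log2 scale in limma (SE 0.18, adjusted p = 0.0328). The call was lost in 10 of 13 fits with 1 array left out, and 1.37% of all genes passed the same call.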

How the results depend on the processing

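Of 294 alternative values of the Gulo and Aox4 differences, 264 moved by less than the spread between arrays, 27 moved by more and 3 were counted as turned in sign. The values counted as turned were those of Aox4 in shSLY minus WT with array quality weights (-0.11) and within the first array set (-0.26), and in shSLX1shSLY minus WT with the array set as a block (-0.43). Differences near 0 also changed sign among the 264. With 1 array left out Gulo ran between -0.20 and 0.12 in shSLX1shSLY minus WT. Aox4 then ran between -0.08 and 0.20 in that comparison, between -0.04 and 0.35 in shSLY minus WT and between -0.28 and 0.12 in shSLX1shSLY minus shSLY. The cause was not tested. Without background correction, with normexp at an offset of 50 and on the authors' normalized values, Gulo was at 1.22, 1.25 and 1.20 and Aox4 at 1.25, 1.28 and 1.23 in shSLX1 minus WT. In shSLX1shSLY minus shSLX1 the same settings gave -1.25, -1.28 and -1.23 for Gulo and -1.20, -1.23 and -1.18 for Aox4, and in the interaction -1.52, -1.55 and -1.49 for Gulo and -1.32, -1.35 and -1.29 for Aox4. For Gulo they gave 0.27, 0.27 and 0.26 in shSLY minus WT and -0.30, -0.30 and -0.28 in shSLX1shSLY minus shSLY. Further values past the spread were -2.59 for Aox4 with the array set as a block and -2.54 for Gulo within the third set, both in shSLX1shSLY minus shSLX1, and -2.07 for the interaction of Aox4 with array quality weights. Median scaling moved the median of all genes by -0.27 in shSLX1 minus WT, -0.35 in shSLX1shSLY minus WT and -0.28 in shSLX1shSLY minus shSLY, and relative to it Gulo was at 2.14 and Aox4 at 2.31 in shSLX1 minus WT. With the replicate block Gulo was at 2.16 and Aox4 at 2.12 in that comparison, and the block ended the call of Mocos in the interaction (-0.81, adjusted p = 0.0992), leaving 0 list genes called. In shSLY minus WT 296 genes were called with it, against 452.

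Counts of genes called in shSLX1 minus WT were 261, and 160 without background correction, 164 with normexp, 110 with median scaling and 156 on the authors' values. In shSLX1shSLY minus shSLX1 they were 1105, and 608, 630, 368 and 586 under the same settings, 580 with only these groups fitted and 2368 with array quality weights. In the interaction they were 201, and 90 with median scaling, 406 with the array set as a block and 1249 with quality weights. With 1 array left out they ran between 182 and 330, 549 (without shSLX1 2) and 2609 (without shSLX1 3), and 111 (without shSLX1shSLY 3) and 270 in these comparisons. In the other comparisons alternatives, single arrays left out included, gave 193 to 743 against 452 in shSLY minus WT, 44 to 3267 against 1303 in shSLX1shSLY minus WT and 0 to 2597 against 15 in shSLX1shSLY minus shSLY. Of the list genes, 0 were called in shSLX1 minus WT without background correction, with normexp, with median scaling and on the authors' values, and between 1 and 2 with 1 array left out. In shSLX1shSLY minus shSLX1 it was 0 without background correction, with normexp and on the authors' values, 1 with median scaling, with a detection p under 0.01 on all arrays of a group, with the array set as a block and with only these groups fitted, 4 with quality weights, and between 2 and 4 with 1 array left out. In the interaction it was 0 without background correction, with normexp, with median scaling and on the authors' values, 4 with quality weights, and between 0 and 1 with 1 array left out. Against 0 list genes, between 0 and 1 were called in shSLY minus WT, between 0 and 5 in shSLX1shSLY minus WT (4 with quality weights) and between 0 and 9 in shSLX1shSLY minus shSLY (1 with the replicate block). Not every array detected Gulo in shSLX1shSLY and WT, or Aox4 outside shSLX1, which limits the precision of those levels.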
